A study of Arabidopsis thaliana with 6 samples.

Results

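A set of 5 little-characterised genes of Arabidopsis thaliana, AT1G73120, AT3G61930, AT5G04730, AT1G33840 and AT5G19970, carried much lower signal in roots exposed to gold than in roots without it. They were picked from the 12 largest falls among the named genes of the array because they belong to no standard gene family, so their falls are given below as descriptions and not as tests. The probe annotation gave each of the 5 genes 1 probe set of its own, among 13356 genes with a probe set named for that gene alone, and none of the 5 also appeared in a probe set shared by several genes. Their probe sets are 262373_at for AT1G73120, 251293_at for AT3G61930, 250855_at for AT5G04730, 257473_at for AT1G33840 and 246142_at for AT5G19970.

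The measurements came from 6 Affymetrix ATH1 arrays of roots of the ecotype Col 0, grown on floating rafts in sealed hydroponic jars for 14 days. In the gold group, 3 jars had their medium exchanged for 0.125 mM KAuCl4, a soluble gold(III) salt, at pH 5.7, and in the no gold group 3 jars received no gold. The exposure time is not settled, since the sample labels name 24 h and the protocol describes 6 h. Neither is the control solution, since the labels call the no gold jars untreated and the design text names water. If only the gold jars had their medium exchanged, gold and that exchange cannot be told apart. Col 0 is the only genotype the labels name, and age and tissue are the same in both groups.

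Some of these genes are known from studies of iron nutrition: AT1G73120, AT3G61930 and AT5G04730 have been listed among genes whose transcripts rise in roots short of iron. In that response the bHLH transcription factor FIT, acting in the root epidermis with partner bHLH proteins, raises genes for iron reduction and uptake and for coumarins, phenolic compounds that roots secrete to mobilise iron. AT5G04730 encodes a protein with ankyrin repeats, a fold that binds other proteins, and AT1G33840 a member of the LURP-one-related proteins, whose biochemical role in plants is little known. For AT1G73120, AT3G61930 and AT5G19970 no molecular role is given here.

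The deposited values are log values that had been centred so that each probe set has a median of 0 over the 6 arrays. They show differences between arrays and not expression levels, so neither the level of a gene nor its signal over background could be judged, levels of different genes could not be ranked, and the tissue label could not be checked against root markers. The base of the logarithm is not stated and was read as 2. Because the gold and no gold values of all 5 genes are separate, the 0 of each gene lies midway between its highest gold and its lowest no gold value. The array of no gold replicate 1 stood apart in the GAPDH control transcript. Its 5' minus 3' difference there was -4.70, against -0.59 to 0.54 on the other 5 arrays. For the Ubq control the difference was -0.87 on that array and -0.29 to 0.19 on the others. For Actin it was -0.26, against -0.20 to 0.17 on the others, so Actin set this array little apart. These differences are relative, since the values are centred. Roots are a mixture of cell types, and fewer cells of a type and less RNA per cell cannot be told apart in these data.

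AT1G73120, one of the genes linked to iron, had the most negative difference of all named genes in the values as deposited. That rank is not settled: without no gold replicate 1 AT1G73120 was at -5.31 and AT3G12900, a gene of the iron list below, at -5.81, and with array quality weights they were at -5.34 and -6.06. Its centred log2 values were -2.96, -2.25 and -2.49 on gold replicates 1, 2 and 3, against 3.09, 3.25 and 2.25 on no gold replicates 1, 2 and 3. All gold arrays lay below all no gold arrays, with a gap of 4.49 between the nearest pair, and among the no gold arrays replicate 3 was the low one. The mean was -2.57 ± 0.36 in gold roots and 2.86 ± 0.54 in no gold roots (SD, n = 3 each), a difference of -5.43 ± 0.30 on the log2 scale (SE from limma), or 43.1-fold lower with gold.

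AT3G61930, also linked to iron, followed at about the same size as AT5G04730. Its values were -2.24, -2.00 and -2.37 on gold replicates 1, 2 and 3, against 2.40, 3.15 and 2.00 on no gold replicates 1, 2 and 3. The gold arrays were close together while the no gold arrays spread over 1.15, with replicate 2 on top. The difference was -4.72 ± 0.29, or 26.4-fold lower with gold, and it averaged -2.20 ± 0.18 in gold roots and 2.52 ± 0.58 in no gold roots (SD, n = 3 each).

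AT5G04730, the ankyrin-repeat gene linked to iron, was the most even of the 5 within both groups. It had values of -2.44, -2.19 and -2.25 on gold replicates 1, 2 and 3, against 2.66, 2.19 and 2.35 on no gold replicates 1, 2 and 3. The gold arrays spread over 0.26 and the no gold arrays over 0.47, the narrowest ranges of the 5 genes in either group. Its difference was -4.70 ± 0.18, or 25.9-fold lower with gold, with means of -2.30 ± 0.13 in gold roots and 2.40 ± 0.24 in no gold roots (SD, n = 3 each).

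AT1G33840, the LURP-one-related gene, fell less than these. Its values were -1.59, -2.11 and -1.69 on gold replicates 1, 2 and 3, against 2.63, 1.59 and 2.48 on no gold replicates 1, 2 and 3. The groups did not overlap, and the low array among those without gold was replicate 2, as it was for AT5G04730. The mean was -1.80 ± 0.27 in gold roots and 2.23 ± 0.56 in no gold roots (SD, n = 3 each), a difference of -4.03 ± 0.29, or 16.3-fold lower with gold.

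AT5G19970 had a fall of the same size as that of AT1G33840 within their errors, at -4.01 ± 0.25, or 16.2-fold lower with gold. Its values were -1.69, -2.23 and -2.10 on gold replicates 1, 2 and 3, against 1.69, 2.46 and 1.87 on no gold replicates 1, 2 and 3. The groups were separated by 3.38, and replicate 1 was both the highest gold array and the lowest no gold array. The mean was -2.01 ± 0.28 in gold roots and 2.01 ± 0.41 in no gold roots (SD, n = 3 each).

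**Figure D1:**
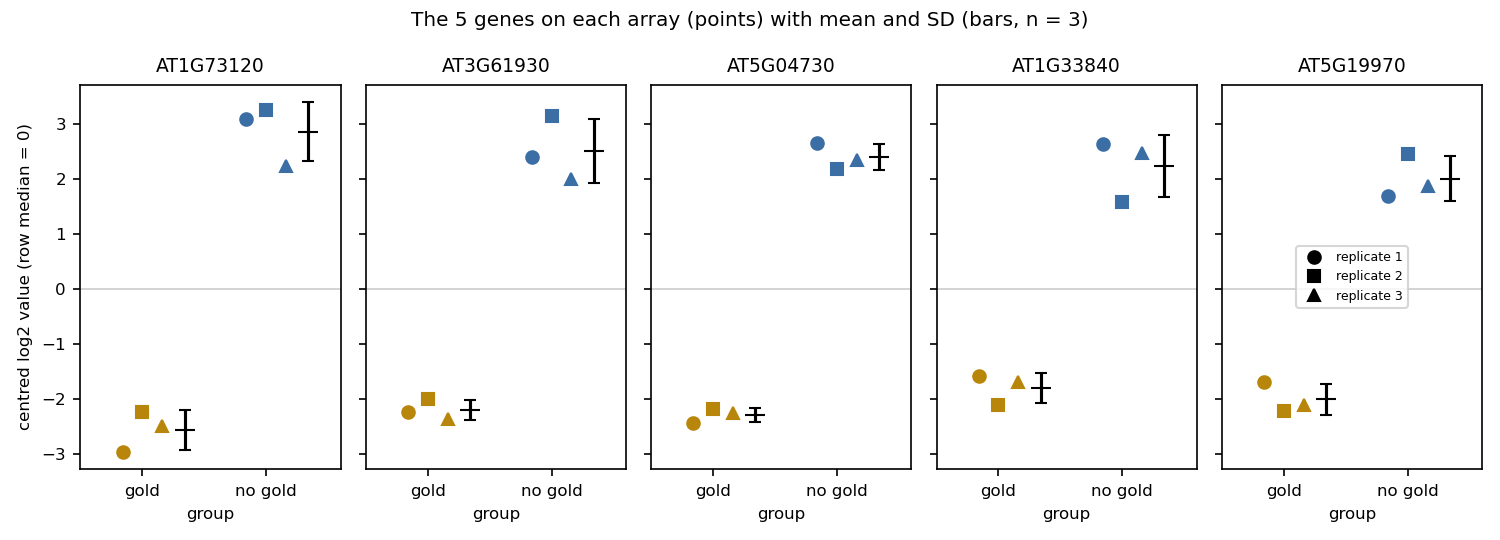
Centred log2 values (vertical axis) of the 5 genes on each array, with gold arrays left and no gold arrays right in each panel; marker shapes give the replicate number and bars the mean and SD (n = 3). Every gold value lies at -1.59 or lower and every no gold value at 1.59 or higher.

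Replicates differed little relative to the size of the falls in each of the 5 genes. The choice of large falls with separate groups required this in part, so it is given as a description. The smallest fall between any gold and any no gold array ran from 3.18 for AT1G33840 to 4.49 for AT1G73120, and the largest from 4.69 for AT5G19970 to 6.21 for AT1G73120. Within groups, 4 of the 5 genes nevertheless varied more than a typical probe set: the pooled within-group SD was 0.46 for AT1G73120, 0.44 for AT1G33840, 0.43 for AT3G61930 and 0.35 for AT5G19970, against a median of 0.25 over all 22746 probe sets. AT5G04730 was below that median at 0.19, with 32.6% of probe sets having a smaller SD. For all 5 genes the gold arrays were closer together than the no gold arrays, a relation seen in 57.1% of all probe sets.

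The 5 genes did not share one order among the jars without gold. AT1G73120, AT3G61930 and AT5G19970 were highest on no gold replicate 2, whereas AT5G04730 and AT1G33840 were highest on no gold replicate 1 and lowest on no gold replicate 2. Among gold arrays, AT1G73120, AT3G61930 and AT5G04730 were highest on replicate 2, while AT1G33840 and AT5G19970 were lowest there and highest on replicate 1. The share of all probe sets with either order was not counted. Averaged over the 5 genes, the value was -2.18, -2.16 and -2.18 on gold replicates 1, 2 and 3, against 2.49, 2.53 and 2.19 on no gold replicates 1, 2 and 3. The array of no gold replicate 1, with its low 5' minus 3' difference for GAPDH, was the lowest no gold array for AT5G19970 alone. Without it the differences were -5.31 for AT1G73120, -4.78 for AT3G61930, -4.57 for AT5G04730, -3.83 for AT1G33840 and -4.17 for AT5G19970.

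A fall this large was rare on the array. With gold, 30 of 22746 probe sets (0.132%) had a log2 difference of -4 or lower, and the median difference of all probe sets was -0.04. Of these 30, the 5 genes made up 5, other genes with a probe set of their own 7, probe sets shared by several genes 1, and probe sets unnamed here 17. In the order of all probe sets AT1G73120 was number 6, AT3G61930 number 12, AT5G04730 number 13, AT1G33840 number 29 and AT5G19970 number 30, so the places above AT1G73120 belong to probe sets without a single named gene. At the edge of the choice, AT1G33840 (-4.03) and AT5G19970 (-4.01) stood just inside the 12 largest falls of named genes, while AT3G01260 (-3.95), AT1G52050 (-3.92) and AT1G44050 (-3.91) stood just outside, closer to the last members than 1 standard error of any of them. The separation of the 2 groups, required by the choice, was found in the same direction in 21.6% of all probe sets, and a call as lower at an adjusted p below 0.05 in 10.9%.

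**Figure D2:**
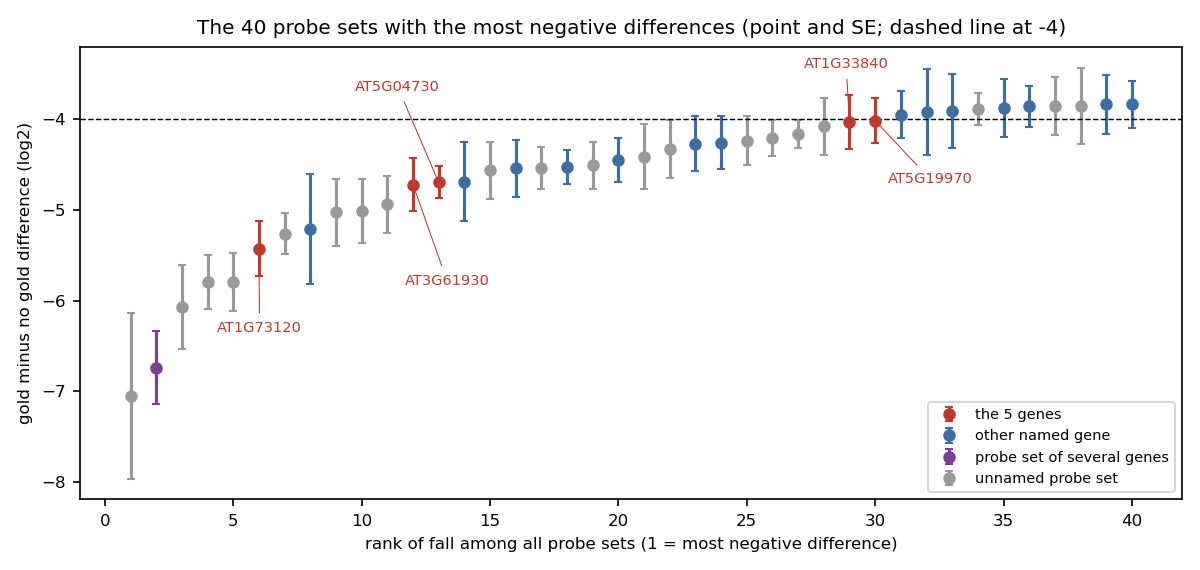
Gold minus no gold differences (log2, with SE) of the 40 probe sets that fell most, by rank along the horizontal axis; red points are the 5 genes, blue points other named genes, the purple point a probe set of several genes and grey points unnamed probe sets. The 5 genes lie between -5.43 and -4.01, with 3 of them near the steep end and AT1G33840 and AT5G19970 at the dashed line of -4.

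The falls kept their direction under each setting run, and quantile normalization moved them most. With each array left out in turn, the difference stayed between -5.74 and -5.23 for AT1G73120, between -4.98 and -4.40 for AT3G61930, between -4.80 and -4.57 for AT5G04730, between -4.35 and -3.83 for AT1G33840 and between -4.17 and -3.79 for AT5G19970. AT1G73120 thus had the most negative value of the 5 in each of these settings, while AT1G33840 and AT5G19970 changed places with the jar left out. Array median centring gave -5.39 for AT1G73120, -4.68 for AT3G61930, -4.66 for AT5G04730, -3.99 for AT1G33840 and -3.98 for AT5G19970, close to the values as deposited. Quantile normalization, which gives every array the same distribution, made all 5 differences more negative, to -6.63 for AT1G73120, -5.58 for AT3G61930, -5.79 for AT5G04730, -5.01 for AT1G33840 and -4.79 for AT5G19970. Under that scaling, and without no gold replicate 2 or gold replicate 3, AT5G04730 was more negative than AT3G61930, so the order of this pair is not settled.

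**Figure D3:**
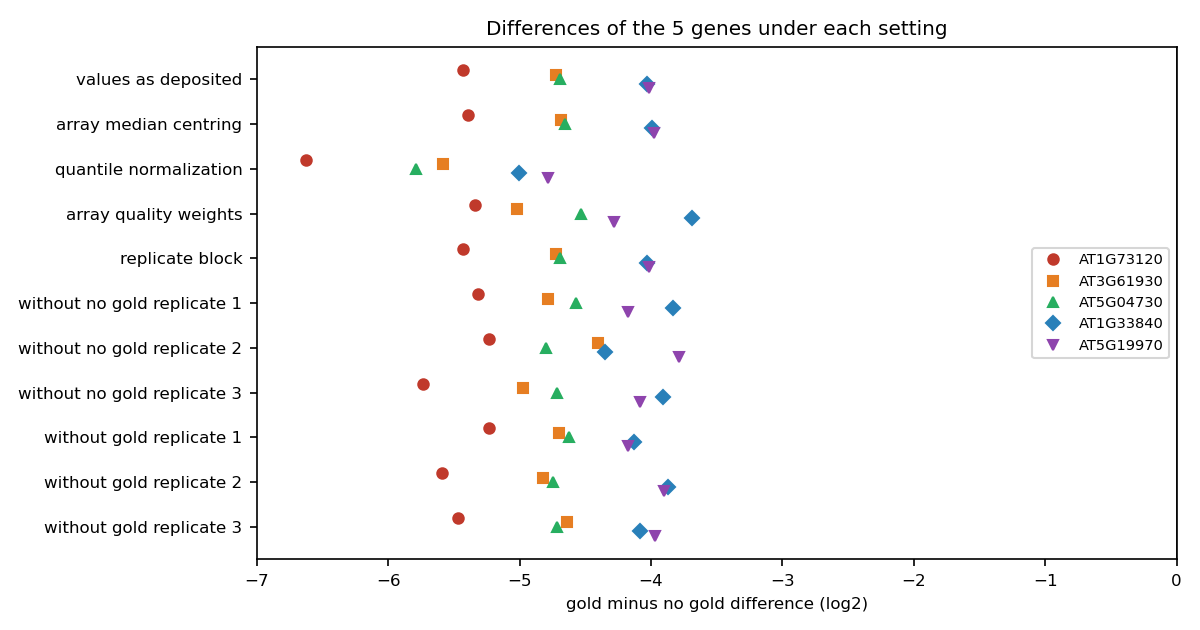
Gold minus no gold differences (log2, horizontal axis) of the 5 genes under each processing setting (rows). All points lie at -3.69 or further left, the quantile row is shifted towards more negative values, and AT1G73120 is leftmost in every row.

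Profiles over the 6 arrays were compared by the root mean square difference of centred values, a description over 6 arrays that share the gold contrast and in which a small value means near-identical profiles. Among the 5 genes it ranged from 0.44, between AT3G61930 and AT1G73120, to 0.96, between AT1G33840 and AT1G73120. Of the other named genes, AT4G22460 was the nearest to AT1G73120 (0.66) and to AT3G61930 (0.40). AT3G45710, of the family of nitrate and peptide transporters, was the nearest to AT5G04730 (0.32).

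UGT72E1, a glucosyltransferase of lignin precursors, was the nearest to AT5G19970 (0.26), followed by AT4G25790 (0.26) and AT3G18450 (0.31). AT1G07560 was the nearest to AT1G33840 (0.34), followed by AT5G54040 (0.38) and AT5G15180 (0.38). AT3G45710 (0.70) and UGT72E1 (0.80) came next for AT1G73120, UGT72E1 (0.42) and AT3G18450 (0.43) for AT3G61930, and AT4G22460 (0.36) and AT1G07560 (0.50) for AT5G04730. In all, 8 different genes filled these 15 places, and 4 of the 8 were themselves among the 12 largest falls. The choice of partners rests on the measure, since ranking by Pearson correlation kept only 1 of the 15. UGT72E1 and AT4G22460 were each near to 3 of the 5 genes. The measure includes the fall itself, on which the 5 genes were chosen, so nearness does not show shared variation within groups.

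Genes next to the 5 on the chromosomes differed little between the groups, with all measured neighbours between -0.54 and 0.33 in the values as deposited. The 5 genes were chosen for their large falls, so smaller differences in their neighbours carry no information by themselves. Of the 20 genes that lie next or next but one to the 5 in the TAIR10.1 gene table, 10 had a probe set named for them alone, and in the limma fit over all probe sets 1 of these was lower with gold, 0 were higher and 9 did not pass, with the same counts of 1 and 0 at an unadjusted p below 0.05. Against the background of 10.9% of probe sets called lower and 9.32% called higher, the adjusted counts are close to what the array shows as a whole. The share of all probe sets at the unadjusted threshold was not counted. The median difference of the 10 was -0.06. Both immediate neighbours of AT1G73120 were near 0, AT1G73110 at 0.04 ± 0.27 and AT1G73130 at -0.10 ± 0.17 (SE, n = 3 and 3). The same held for both immediate neighbours of AT3G61930, AT3G61920 at 0.01 ± 0.16 and MTPA1, a gene of the metal tolerance protein family, at -0.08 ± 0.16, and for AT3G61950 beyond MTPA1 at 0.10 ± 0.16. AT1G73110 was uneven within groups, at 0.59 on gold replicate 3 and 0.66 on no gold replicate 1. With array quality weights it was at 0.63 (limma adjusted p = 0.00505).

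The neighbour that passed was AT5G04750, next but one to AT5G04730. Its values were -0.13, -0.38 and -0.25 on gold replicates 1, 2 and 3, against 0.45, 0.13 and 0.28 on no gold replicates 1, 2 and 3. All gold arrays were below all no gold arrays, by a small margin. It fell by 0.54 ± 0.16 (limma adjusted p = 0.0496), a call that was lost with any 1 of the 6 arrays left out (limma adjusted p from 0.0598 to 0.16). AT5G04710, on the other side of AT5G04730, was at -0.34 ± 0.19 (limma adjusted p = 0.279), and at -0.52 without no gold replicate 1 (limma adjusted p = 0.0443). Around AT1G33840 the gene AT1G33830 was at -0.14 ± 0.15, and around AT5G19970 the genes AT5G19960 and AT5G19950 were at 0.33 ± 0.18 and -0.03 ± 0.18, none of which passed.

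Genes of the iron-deficiency response that depend on FIT mostly fell with gold, as AT1G73120, AT3G61930 and AT5G04730 did. The list named 29 such genes, without the 5 genes themselves, and 10 had a probe set named for them alone. In the limma fit 8 of the 10 were lower with gold, 0 were higher and 2 did not pass, against 10.9% lower among all probe sets. At an unadjusted p below 0.05 the counts were 9 lower and 0 higher, a threshold at which the share of all probe sets was not counted. The median difference of the 10 was -2.09, against -0.04 for all probe sets. This list was written with earlier results of these data known, 2 of its genes were already among the 12 largest falls, and IRT1, FRO2 and FIT itself were among the 19 for which no probe set was named alone, so it is not independent evidence.

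The enzymes of the list held its 2 largest falls. AT3G12900, scopoletin 8-hydroxylase, which makes a coumarin that mobilises iron, had values of -2.31, -1.84 and -2.38 on gold replicates 1, 2 and 3, against 1.84, 4.56 and 2.70 on no gold replicates 1, 2 and 3. The no gold arrays were spread widely, with replicate 2 on top, and the groups did not overlap. It fell by 5.21 ± 0.61 (limma adjusted p = 0.000863). UGT72E1 fell by 4.26 ± 0.29 (limma adjusted p = 8.05e-05), and BGLU42, a beta-glucosidase that frees coumarins from their glucosides, fell by 1.87 ± 0.33 (limma adjusted p = 0.0062). AT3G13610, the feruloyl-CoA hydroxylase that starts the coumarin pathway, did not pass at 0.55 ± 0.37, and CYP71B5, a cytochrome P450 gene, did not pass at -1.58 ± 0.54 (limma adjusted p = 0.083), though it did at -2.00 without no gold replicate 1 (limma adjusted p = 0.0429).

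Transporters and regulators of the list fell as well. AT3G58060, the metal transporter MTP8 of the vacuole membrane, fell by 3.78 ± 0.35 (limma adjusted p = 0.000332), and AT5G38820, a putative amino acid transporter, fell by 2.99 ± 0.30 (limma adjusted p = 0.000456). AT3G07720, a kelch-repeat protein gene, fell by 2.22 ± 0.29. AT1G74770 and AT1G18910 encode the BRUTUS-like ubiquitin ligases that restrain iron uptake, and AT1G74770 fell by 1.96 ± 0.21 on the probe set used here and was at -3.48 ± 0.26 on another, which passed too (limma adjusted p = 0.000121). AT1G18910 fell by 0.67 ± 0.16 (limma adjusted p = 0.0239), the smallest of the 8 falls, and its call was lost without replicate 2 or 3 of either group (limma adjusted p from 0.052 to 0.113).

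Iron-deficiency genes outside the FIT arm were less covered, with 3 of 12 measured. In the limma fit 0 were higher and 0 lower, against 9.32% higher and 10.9% lower among all probe sets. At an unadjusted p below 0.05 there were 1 lower and 0 higher, with the share of all probe sets not counted. BHLH101, a bHLH partner of FIT, was at -0.70 ± 0.26, PYE, a bHLH regulator active in the pericycle, at 0.30 ± 0.19, and AT1G47400, an iron-signalling peptide gene, at -0.67 ± 0.45. A difference between these genes and those that depend on FIT was not tested.

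The no gold arrays can also be set in order for the iron genes, without a test of any difference from the 5 genes. Among the 8 FIT-dependent genes that fell, 6 were highest on no gold replicate 2 and 6 were lowest on no gold replicate 1. Among the 5 genes, 3 were highest on no gold replicate 2 and 1 was lowest on no gold replicate 1. Over all 2480 probe sets that were lower with gold, 30.1% were highest on no gold replicate 2 and 35.1% lowest on no gold replicate 1.

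**Figure D4:**
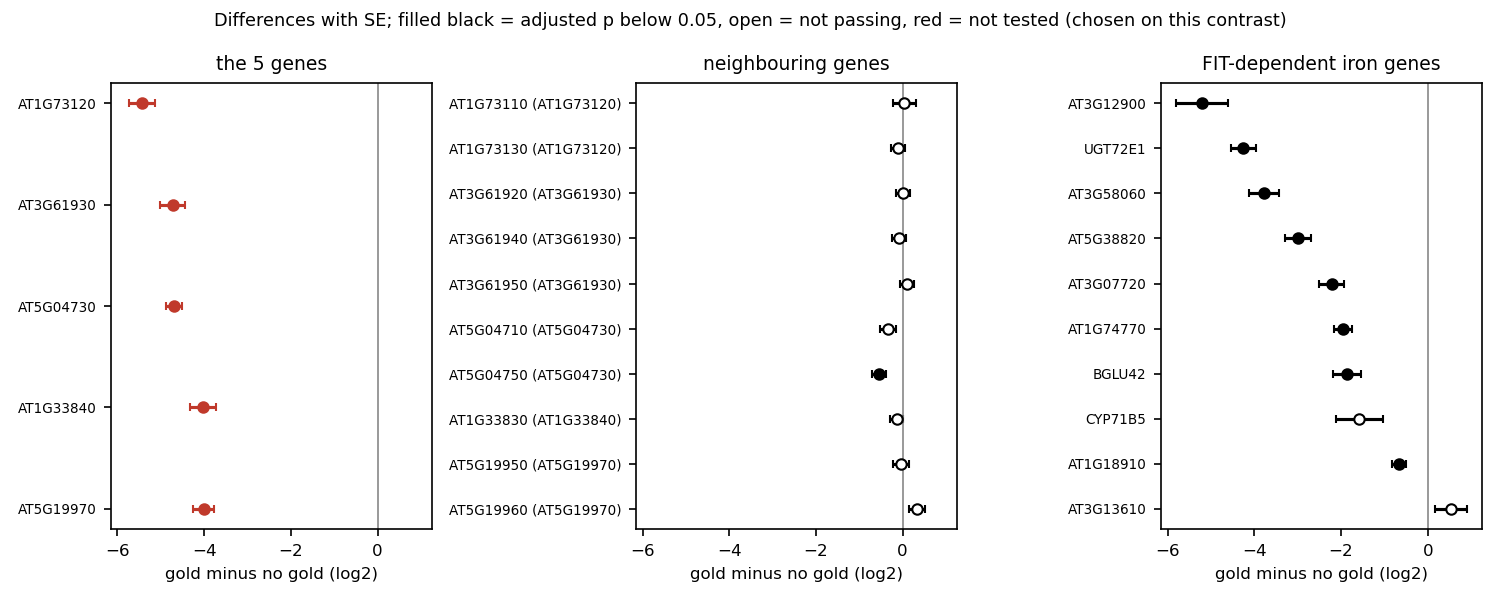
Gold minus no gold differences (log2, with SE) of the 5 genes (left), of their measured chromosomal neighbours with the gene they lie near in brackets (middle) and of the FIT-dependent iron genes (right); filled black points passed an adjusted p below 0.05, open points did not, and red points were not tested. Neighbours lie between -0.54 and 0.33, while 9 of the 10 iron genes lie below 0.

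Markers of particular cell types moved with gold too, and their part in the falls of the 5 genes was not tested. The marker lists were written with earlier results of these data known, so their counts are not independent evidence. Of 8 root hair markers 3 were measured and all 3 fell, against 10.9% lower among all probe sets, AT1G30870 by 2.53 ± 0.36, EXPA18 by 2.36 ± 0.38 and EXPA7 by 2.34 ± 0.35. Their summed centred value was -5.24 to -1.72 on gold arrays, against 1.72 to 4.31 on no gold arrays. Gold replicate 1 was the gold array with the highest root hair sum. It was the lowest gold array for AT1G73120 and AT5G04730, the highest for AT1G33840 and AT5G19970, and in between for AT3G61930. Of 6 markers of green shoot tissue 2 were measured, RCA fell by 1.49 ± 0.23 and PRK was at -1.48 ± 0.49 without passing, and their summed value was -1.51 to -0.57 on gold arrays, against 1.00 to 3.37 on no gold arrays. The 7 endodermis markers had no probe set named for any of them alone and were not analysed here.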

How the data were processed

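Roots were profiled on 6 ATH1 arrays, 3 per group, and each array was 1 sample. The values for 22810 probe sets were deposited by the authors on a log scale, read here as log2, and centred per row (row medians within 5e-07 of 0). Summarisation, scaling and log base were not stated in the labels. Per the labels' protocols, RNA was extracted with a Qiagen kit and labelled with biotin. Leaving out 64 control probe sets, 22746 were fitted with limma 3.58.1 in R 4.3.3 (lmFit, eBayes), as a two-sided test of gold minus no gold with p-values adjusted by Benjamini and Hochberg and a threshold of 0.05. Probes were named from GEO's platform annotation (13513 with 1 gene, 9233 tested with no single gene), and neighbours from the TAIR10.1 table. No coordinates are printed because the arrays name no build. The members and gene lists were chosen with earlier results of these data known. Named genes were the 5 genes, the 3 nearest profiles of each, neighbours 2 deep on each side, listed iron genes and the 3 genes ranked next. For a gene with several probe sets, the one without a shared-sequence suffix, then the lowest ID, was used. The fit was tested on simulated data. Protein relatives and promoter motifs were planned and not run, as no sequences were used here. Python 3.11.15, pandas 2.3.3 and matplotlib 3.10.9 made tables and figures.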

Additional observations from a re-analysis of the deposited data

How the results depend on the processing

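The number of arrays limits the precision, and centring leaves signal over background unknown, so the planned filter on dim probe sets was not run. The median difference of the 5 genes was -5.58 with quantile normalization and -4.75 to -4.40 with 1 array left out, against -4.70 as deposited. None of the 5 changed sign under any setting run, which their choice for large falls with separate groups made near certain. Array quality weights were lowest on no gold replicate 1 (0.155) and highest on gold replicate 3 (15.8). Gold replicates 1 and 2 had weights of 0.447 and 0.347, so the gold side of this setting rested mostly on gold replicate 3. With that limit, the weights gave 5442 higher and 6366 lower probe sets, 2 higher and 2 lower neighbours, and 1 higher and 1 lower iron gene outside the FIT arm. With 1 array left out, 1262 to 2432 probe sets were higher and 1258 to 2717 lower, the lowest without gold replicate 3, with 1565 lower without no gold replicate 2 and 1625 without gold replicate 2, against 2121 higher and 2480 lower with all arrays. FIT-dependent genes lower with gold numbered 7 to 9, and lower neighbours 0 to 1. Array median centring and the replicate block each left 0 lower neighbours. With the replicate block AT5G04750 had limma adjusted p = 0.0882 and AT1G18910 0.0541, while CYP71B5 passed at 0.0398, as it did without no gold replicate 1 (0.0429), and the 5 differences did not move. Deviations of the arrays with one number correlated at -0.11, -0.25 and 0.28 over probe sets for numbers 1, 2 and 3, so the numbers were not taken as pairs, and several arrays correlated better with an array of another number. Protein-coding neighbours alone, a choice made after seeing the data, again gave 1 lower and 0 higher, of 12 measured. Ranking profiles by Pearson correlation kept 1 of the 15 nearest genes. The cause of these differences was not tested.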
